A study of Mus musculus with 3 samples.

Results

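The interleukin-1 (IL-1) and inflammasome system was described here through 10 of the 11419 genes listed in the deposited files, chosen by gene symbol. They are the cytokine genes Il1b, Il1a and Il18, the antagonist gene Il1rn, the receptor genes Il1r2 and Il1rap, and the inflammasome genes Nlrp3, Pycard, Casp1 and Gsdmd. All 10 were listed, each as 1 gene. The libraries came from 1 sorted bone marrow population of C57BL/6 mice, an inbred strain, taken from tibiae and femurs. The sorted cells carried CD11b, F4/80 and CD169 at the surface and lacked CX3CR1, and the labels call them macrophages. The series holds 3 such libraries, no comparison population and no named treatment. The labels do not give the age of the mice or say that the libraries came from separate mice, so every p-value rests on the spread among 3 libraries, and that spread may be technical.

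Inflammasomes are protein assemblies of the cytosol. A sensor such as NLRP3 detects damage or infection and recruits the adaptor ASC, which Pycard encodes, and ASC recruits caspase-1. Caspase-1 cuts the inactive precursors of IL-1β and IL-18 and opens gasdermin D, which forms pores in the cell membrane through which the cytokines leave and by which the cell may die (pyroptosis). IL-1α and IL-1β signal through the receptor IL1R1 together with the accessory protein encoded by Il1rap. They are held back by the antagonist IL-1RN, which occupies IL1R1 without signalling, and by IL1R2, a decoy receptor that binds IL-1 and has no signalling domain. In phagocytes the RNA of Il1b and Nlrp3 is known to be made on priming by microbial or cytokine signals. These data are of RNA, and say nothing of whether any protein was present, cut or released.

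The deposited unit was CPM, a count per 1000000 reads of the listed genes in the library. The libraries held 5150020, 40149274 and 37604930 reads of listed genes in replicates 1, 2 and 3, so replicate 1 was the least precise. A count of 0 allows up to 3 reads, which is 0.583 CPM in replicate 1, 0.0747 CPM in replicate 2 and 0.0798 CPM in replicate 3, for counting error only. Neutrophil genes took far more of the reads than genes of the labelled cell type. Over the libraries 12 neutrophil genes summed to 184356 to 220773 CPM and 12 macrophage genes to 242 to 265 CPM. Of the macrophage genes 5 were above 10 CPM, the fixed level used throughout, and 5 below, among them Siglec1, the gene of CD169, with 0.388, 3.66 and 4.57 CPM in replicates 1, 2 and 3. Adgre1, the gene of F4/80, was above at 22.2 ± 3.97 CPM (SD, n = 3). In a bulk library, fewer cells of a type and less RNA per cell cannot be told apart.

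With no second population, each gene was compared with 10 CPM by limma on log2(CPM + 1), with adjusted p-values over 11123 tested genes. In limma the variance of a gene is drawn towards that of genes of similar level. Its SEs and p-values therefore do not rest on the gene's own spread alone. Of the 10 transcripts, 8 were above 10 CPM and 2 below, where 58.8% of all tested genes were above and 28.3% below. The median level of the 10 was 42.0 CPM and that of all tested genes was 20.9 CPM. The 2 below were the cytokine genes Il1a and Il18. In edgeR 8 were above and 1 below, where 59.9% of all tested genes were above and 25.1% below, and in DESeq2 2 were below, where 26.5% of all tested genes were. Together the 10 transcripts took 555, 552 and 594 CPM in replicates 1, 2 and 3.

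**Figure D1:**
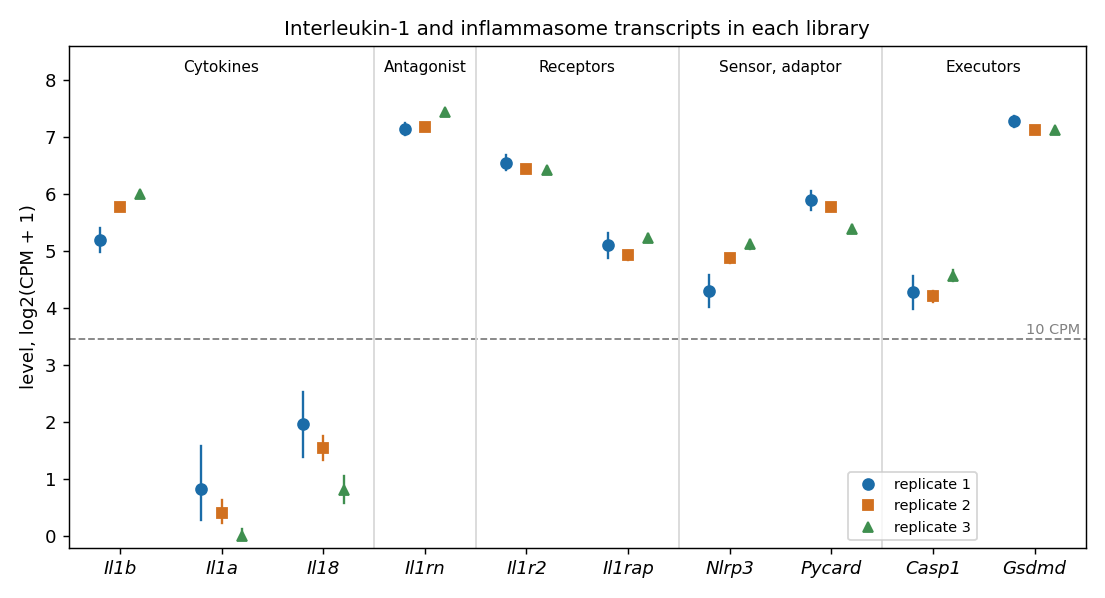
Level of each of the 10 transcripts, log2(CPM + 1), in the 3 libraries, grouped by role. Bars are exact Poisson 95% intervals (counting error only) and the dashed line is 10 CPM. Il1a and Il18 lie below the line in every library and the other 8 above it.

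Il1b stood apart from its close relative Il1a. Both genes are on GRCm38 chromosome 2, read from the minus strand, with start sites 61.2 kb apart, Il1b (ENSMUSG00000027398) at 129364570 to 129371139 and Il1a (ENSMUSG00000027399) at 129299610 to 129309972. The 250 bases before each start site are printed because this neighbouring pair had such unequal RNA. They are RefSeq sequences on GRCm38.p6, minus strand, at chr2:129371140-129371389 (Il1b) and chr2:129309973-129310222 (Il1a), 5′ to 3′, with the motif TATAAA of the TATA box core in capitals.
Il1b: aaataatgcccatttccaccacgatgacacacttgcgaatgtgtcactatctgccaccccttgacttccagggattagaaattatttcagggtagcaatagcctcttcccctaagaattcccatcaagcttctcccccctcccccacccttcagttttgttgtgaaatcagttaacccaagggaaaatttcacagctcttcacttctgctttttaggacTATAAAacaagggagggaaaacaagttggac
Il1a: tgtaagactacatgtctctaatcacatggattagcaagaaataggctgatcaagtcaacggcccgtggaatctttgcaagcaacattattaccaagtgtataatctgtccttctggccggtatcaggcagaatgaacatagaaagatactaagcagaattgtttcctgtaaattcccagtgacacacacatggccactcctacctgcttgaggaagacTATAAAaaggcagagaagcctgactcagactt

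Both promoters held TATAAA close before the start, beginning 31 bases before it in Il1b and 32 bases before it in Il1a. Searched on both strands, this motif was in 12.4% of the 32851 promoter windows of equal length in the RefSeq table, and in 3 of the 9 members with a window there, the other being Il18. Motifs of other factors of myeloid cells were searched in the same way. The PU.1 core GAGGAA was in Il1a, Casp1, Nlrp3 and Pycard, in 4 of the 12 member windows and in 23.3% of all windows. The C/EBP motif TTNNGNAA was in Il1a, Il1b, Il1rn, Nlrp3 and Pycard, in 7 of the 12 member windows and in 36.8% of all windows. In Il1a the PU.1 and C/EBP matches overlap. For NF-kB only a restricted form of the motif was searched, with T fixed at inner positions, and not the full consensus. This form was matched in Il1rn alone of the 9, in 1 of the 12 member windows and in 1.41% of all windows. Other forms of the NF-kB motif were not searched, so the promoters without a match may hold them. A match is a description of letters and not a binding site.

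Il1b, which encodes IL-1β, had 35.7, 53.9 and 63.1 CPM in replicates 1, 2 and 3, from 184, 2163 and 2374 reads. It was lowest in replicate 1, and the exact Poisson 95% interval there (30.8 to 41.3 CPM) did not overlap those of the other libraries (51.6 to 56.2 CPM in replicate 2 and 60.6 to 65.7 CPM in replicate 3). Its mean was 50.9 ± 13.9 CPM (SD, n = 3), 2.20 log2 units above 10 CPM (limma, SE 0.16, adjusted p = 1.17e-11). Per kb of annotated exon it stood above 86.6% of all listed genes.

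Il1a, which encodes IL-1α, an alarmin active before cutting, had 0.777 and 0.324 CPM in replicates 1 and 2 and 0 in replicate 3. These rest on 4, 13 and 0 reads, with interval tops of 1.99, 0.554 and 0.0981 CPM in replicates 1, 2 and 3. The limit of 3 reads for a count of 0 is 0.0798 CPM in replicate 3. Its log2 level against 10 CPM was -3.05 (SE 0.37, limma adjusted p = 9.05e-08), a call that edgeR on recovered reads did not give (adjusted p = 0.0655) and that DESeq2 gave (adjusted p = 0.00150). Without replicate 2 too few reads were left to test it. Exons of Il1a overlap a transcript of the opposite strand over 222 bases, those of Il1b over 25 bases, Il1rap over 552 bases and Pycard over 485 bases. None of these transcripts was listed, and whether the counting used strand is not given in the sources used here, so their reads cannot be told apart.

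Il18, the other caspase-1 substrate among the cytokines, was low as well. It lies on chromosome 9, plus strand, 50554827 to 50581840 (ENSMUSG00000039217). It had 2.91, 1.92 and 0.745 CPM in replicates 1, 2 and 3, from 15, 77 and 28 reads. Replicate 3 was the lowest, with an interval of 0.495 to 1.08 CPM that did not overlap those of replicate 1 (1.63 to 4.80) or replicate 2 (1.51 to 2.40). The mean was 1.86 ± 1.09 CPM (SD, n = 3), a log2 level of -2.02 against 10 CPM (SE 0.32, limma adjusted p = 5.47e-06).

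The genes that restrain IL-1 and the accessory receptor gene were all above 10 CPM. Il1rn, the antagonist gene (chromosome 2, plus strand, 24336853 to 24351494, ENSMUSG00000026981), had 139.8, 144.1 and 172.7 CPM in replicates 1, 2 and 3. It was highest in replicate 3, and its mean of 152 ± 17.9 CPM (SD, n = 3) was 3.79 log2 units above 10 CPM (limma, SE 0.12, adjusted p = 1.75e-18). The gene makes a secreted and intracellular forms from different starts, and values per gene do not separate them.

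Il1r2, the decoy receptor gene (chromosome 1, plus strand, 40074079 to 40125231, ENSMUSG00000026073), had 92.8, 85.5 and 84.9 CPM in replicates 1, 2 and 3. The intervals of the 3 libraries all overlapped (84.7 to 101.5, 82.7 to 88.4 and 82.0 to 87.9 CPM), and this was the steadiest of the 10, its highest library at 1.09 times its lowest. The mean was 87.8 ± 4.40 CPM (SD, n = 3), 3.01 log2 units above 10 CPM (limma, SE 0.12, adjusted p = 3.96e-16).

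Il1rap encodes the accessory chain that IL-1, IL-33 and IL-36 receptors share, and the gene also makes a soluble form. It lies on chromosome 16, plus strand, 26581704 to 26730117 (ENSMUSG00000022514), and had 33.4, 29.5 and 36.7 CPM in replicates 1, 2 and 3, a mean of 33.2 ± 3.60 CPM (SD, n = 3). It was above 10 CPM by 1.63 on the log2 scale (SE 0.16, limma adjusted p = 2.19e-09), but its annotated exons are long (11360 bases), and against 10 CPM per kb of exon it was below (log2 -1.49, limma adjusted p = 1.02e-05).

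Il1r1, the signalling receptor to which the antagonist binds, was not listed, so its level is unknown. It lies between Il1r2 and Il1rl2 in a group of 6 IL-1 family receptor genes that spans 478 kb of chromosome 1. Il18rap, the signalling chain of the IL-18 receptor, at the other end of the group, had 228, 255 and 276 CPM in replicates 1, 2 and 3. Its partner Il18r1, the chain that binds IL-18, had 14.2, 21.5 and 17.9 CPM. Per kb of exon Il18rap was at 37.4 ± 3.52 CPM and Il18r1 at 3.71 ± 0.763 CPM (SD, n = 3). Both were above 10 CPM, Il18rap by 4.52 on the log2 scale (SE 0.11, limma adjusted p = 2.19e-20) and Il18r1 by 0.76 (SE 0.19, limma adjusted p = 8.41e-04), although per kb of exon Il18r1 was below that level (limma adjusted p = 5.87e-05).

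**Figure D2:**
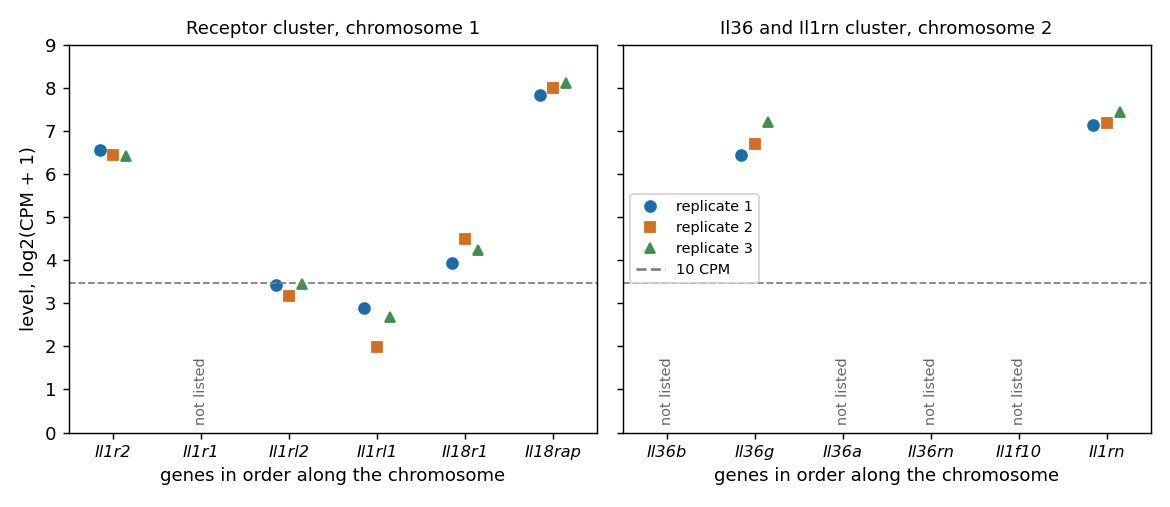
Levels, log2(CPM + 1), of the IL-1 family genes in their order along chromosomes 1 and 2, in the 3 libraries, with 10 CPM as a dashed line. Il1r2, Il18r1 and Il18rap lie above the line in every library, Il36g and Il1rn were the 2 listed genes of the other group, and genes not listed have no value.

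The remaining receptor genes were at or under 10 CPM. Il1rl2, which binds IL-36, was at 9.20 ± 1.07 CPM (SD, n = 3) and was called neither way (limma adjusted p = 0.628). Il1rl1, the IL-33 receptor gene that basophils and mast cells carry, was below at 4.92 ± 1.78 CPM (limma adjusted p = 0.00262), a call lost without replicate 2 (0.0843). In replicates 1, 2 and 3 it had 6.41, 2.94 and 5.40 CPM while 5 listed basophil and mast cell genes summed to 1471, 733 and 809 CPM with none at 0. Of these, Hdc had 552, 609 and 675 CPM and the other 4 summed to 919, 124 and 134 CPM, and their part in its level was not tested. Sigirr, an inhibitory receptor, was at 6.30 ± 2.57 CPM and below in limma (adjusted p = 0.0233) but not in edgeR (0.0521), nor without replicate 2 (0.113) or replicate 3 (0.165). Il18bp, which encodes a soluble protein that traps IL-18, was above at 25.0 ± 4.06 CPM (limma adjusted p = 7.56e-07).

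Of 6 other IL-1 family ligands, Il36g alone was listed, under its older symbol Il1f9. It encodes IL-36γ and is near Il1rn on chromosome 2, in a group of 6 genes spanning 198 kb. It had 86.4, 102.2 and 147.7 CPM in replicates 1, 2 and 3, and per kb of exon 52.4, 62.0 and 89.6 CPM, against 18.7, 28.3 and 33.1 CPM per kb for Il1b, so it was higher in each library. Its mean of 112 ± 31.8 CPM (SD, n = 3) was 3.33 log2 units above 10 CPM (limma, SE 0.14, adjusted p = 4.28e-16).

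The core inflammasome genes were above 10 CPM, from sensor to executor. Nlrp3, the sensor gene (chromosome 11, plus strand, 59541568 to 59566956, ENSMUSG00000032691), had 18.8, 28.3 and 33.7 CPM in replicates 1, 2 and 3, a mean of 27.0 ± 7.55 CPM (SD, n = 3). It was lowest in replicate 1, where the interval reached 23.0 CPM, under the lower ends in replicates 2 and 3 (26.7 and 31.9 CPM). It was above 10 CPM by 1.31 on the log2 scale (SE 0.18, limma adjusted p = 6.64e-07). Per kb of exon its level was under 10 CPM (log2 -0.56, limma adjusted p = 0.0114).

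Pycard, the adaptor gene (chromosome 7, minus strand, 127989708 to 127993867, ENSMUSG00000030793), had 58.4, 53.5 and 40.9 CPM in replicates 1, 2 and 3. It was lowest in replicate 3, where Il1b and Nlrp3 were highest. Its mean was 50.9 ± 9.04 CPM (SD, n = 3), 2.22 over 10 CPM on the log2 scale (SE 0.15, limma adjusted p = 2.48e-12).

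Casp1, the protease gene (chromosome 9, plus strand, 5298517 to 5307265, ENSMUSG00000025888), had 18.4, 17.5 and 22.8 CPM in replicates 1, 2 and 3, a mean of 19.6 ± 2.82 CPM (SD, n = 3). It was above 10 CPM by 0.89 on the log2 scale (SE 0.18, limma adjusted p = 1.02e-04). Gsdmd, the pore-former gene (chromosome 15, plus strand, 75862327 to 75867408, ENSMUSG00000022575), had 154, 138 and 139 CPM. Its mean was 144 ± 9.16 CPM (SD, n = 3), 3.71 over 10 CPM on the log2 scale (SE 0.12, limma adjusted p = 1.97e-18). Per kb of exon it stood above 94.2% of all listed genes.

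The libraries did not move as one. Il1b, Il1rn, Nlrp3, Casp1 and Il1rap were highest in replicate 3, and Il1a, Il18, Il1r2, Pycard and Gsdmd in replicate 1. Of all tested genes 48.2% were highest in replicate 3 and 32.1% in replicate 1. The median SD over libraries on the log2(CPM + 1) scale was 0.23 for the 10 genes and 0.27 for all tested genes. Among markers, the sum of 6 eosinophil genes was 558, 924 and 1285 CPM in replicates 1, 2 and 3, lowest where Il1b and Nlrp3 were lowest, with no gene at 0. The 12 neutrophil genes summed to 219160, 220773 and 184356 CPM, lowest where Il1b and Nlrp3 were highest, with none at 0. Ngp was the largest part of that sum, with 59831, 53918 and 51452 CPM, so the sum does not stand for each gene. Of these 12, 7 were lowest in replicate 3, 4 (Mmp8, Mmp9, Cxcr2 and Csf3r) in replicate 1, as Il1b was, and 1 in replicate 2. The 12 macrophage genes summed to 260, 242 and 265 CPM, none at 0, and the 8 monocyte genes to 1175, 1052 and 956 CPM. Neither sum had the order of Il1b. Of the 12 macrophage genes 4 were lowest in replicate 1, as Il1b was, 3 in replicate 2 and 5 in replicate 3. Siglec1 (0.388, 3.66 and 4.57 CPM, from 2 reads in replicate 1) did have the order of Il1b. That order was not particular to macrophage genes. Mmp8, Mmp9, Cxcr2, Csf3r, the basophil and mast cell gene Hdc and the eosinophil sum had it too. Most of the monocyte sum was Ly6c2, with 1141, 1017 and 932 CPM. Vcan was at 0 in each library, Cx3cr1 at 0 in replicates 1 and 3 and Ace at 0 in replicate 1. The 5 listed erythroid genes summed to 754, 419 and 397 CPM, highest in replicate 1, as Il18 was. The part of these cell types in the levels was not tested.

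Levels of different genes were compared per kb of annotated exon within each library. In that measure Gsdmd was first at 60.4 ± 3.85 CPM per kb, followed by Il1r2 (46.0 ± 2.30), Il1rn (27.5 ± 3.24), Il1b (26.7 ± 7.31), Pycard (13.4 ± 2.38), Casp1 (13.1 ± 1.88), Nlrp3 (6.65 ± 1.86), Il1rap (2.92 ± 0.316), Il18 (1.80 ± 1.05) and Il1a (0.186 ± 0.198) (SD, n = 3 each). Neighbours whose libraries overlapped were Il1rn with Il1b, Pycard with Casp1 and Il1rap with Il18. The other neighbours in that order had no overlapping libraries. The places of Il1rn, Pycard, Nlrp3 and Il1rap, among others, rested on the length used. Nlrp3 was above Il1rap per kb of exon only. Per kb of the longest curated coding transcript Il1rap was at 7.34 ± 0.795 and Nlrp3 at 6.71 ± 1.88, with overlapping libraries. Per kb of coding sequence Il1rap was at 16.1 ± 1.75 and Nlrp3 at 8.70 ± 2.44, without overlap. Per kb of coding sequence Il1rn came first (285 ± 33.5 CPM per kb) and Pycard came after Gsdmd (88.0 ± 15.6), because 3800 bases are annotated as Pycard exons and 579 of them as coding. RefSeq gives the whole Pycard gene a span of 2495 bases, shorter than those exons, so its level per kb of exon is uncertain.

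**Figure D3:**
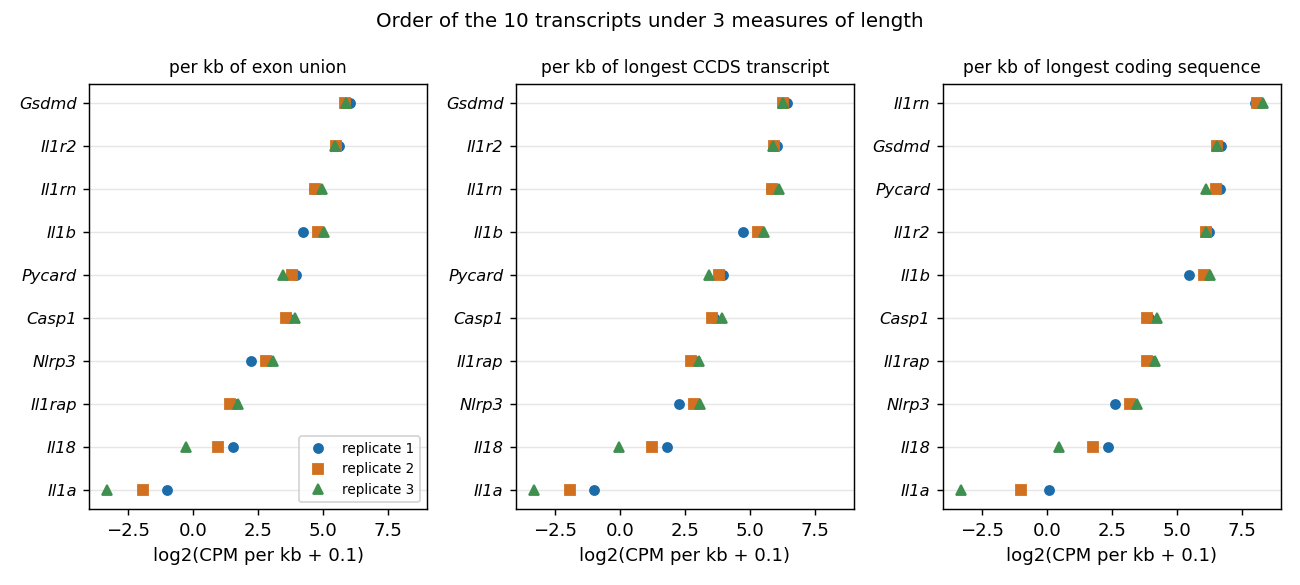
The 10 transcripts in order of their mean level per kb, log2(CPM per kb + 0.1), with 1 panel for each measure of length and 1 point for each library. Gsdmd and Il1r2 stay among the first 4 and Il18 and Il1a are the last in each panel, while Il1rn and Pycard change place. Nlrp3 lies above Il1rap per kb of exon union only.

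Within each library Il1b exceeded Il1a and Il18 per kb of exon, though not Il36g. The log2 ratio of Il1b to Il1a was 4.42, 5.42 and 6.05 in replicates 1, 2 and 3, a mean of 5.30 ± 0.82 (SD, n = 3), with 1 CPM added to both. With 0.1 CPM added the mean was 7.27, since Il1a was near 0. The ratio of Il1b to Il18 was 2.34, 3.35 and 4.31 (mean 3.33 ± 0.98). Both were positive in 3 of 3 libraries, where an exact two-sided sign-flip permutation test gave p = 0.25 (adjusted p = 0.321 over 9 ratios), and 3 libraries cannot give a smaller p.

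The antagonist and Il1b could not be ordered per kb of exon. The log2 ratio of Il1rn to Il1b was 0.40, -0.13 and -0.10 in replicates 1, 2 and 3 (mean 0.06 ± 0.30, exact sign-flip permutation p = 1.0, adjusted p = 1.0), and without replicate 1 its mean was -0.12. Per kb of the longest curated coding transcript (CCDS) the mean ratio was 0.73, and per kb of coding sequence it was 2.19. The decoy receptor exceeded Il1b in 3 of 3 libraries, by a log2 ratio of 1.35, 0.66 and 0.42 (mean 0.81 ± 0.48), all per kb of exon. Per kb of coding sequence the mean was 0.20, and the libraries overlapped, with Il1r2 at 69.0 and Il1b at 78.2 CPM per kb in replicate 3. Il1r2 exceeded Il1rap by 4.02, 4.08 and 3.76 (mean 3.95 ± 0.17, exact sign-flip permutation p = 0.25 for both ratios, adjusted p = 0.321). The ratio of Il1r2 to Il1rap was 3.05 with the length of the CCDS transcript and 1.38 without length.

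Inside the inflammasome, the gasdermin gene exceeded the caspase gene and both adaptor and caspase exceeded the sensor, per kb of exon. The log2 ratio of Gsdmd to Casp1 was 2.33, 2.24 and 1.89 in replicates 1, 2 and 3 (mean 2.15 ± 0.23). That of Casp1 to Nlrp3 was 1.41, 0.77 and 0.89 (mean 1.02 ± 0.34), and without length it was -0.41, since the Nlrp3 transcript is long. That of Pycard to Nlrp3 was 1.68, 0.99 and 0.36 (mean 1.01 ± 0.66). Each of the 3 was positive in 3 of 3 libraries (exact sign-flip permutation p = 0.25, adjusted p = 0.321). Pycard and Casp1 could not be ordered per kb of exon, with ratios of 0.27, 0.22 and -0.53 (mean -0.01 ± 0.44, exact sign-flip permutation p = 1.0, adjusted p = 1.0), and without replicate 3 the mean was 0.24. It was 1.33 without length and 2.39 per kb of coding sequence.

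**Figure D4:**
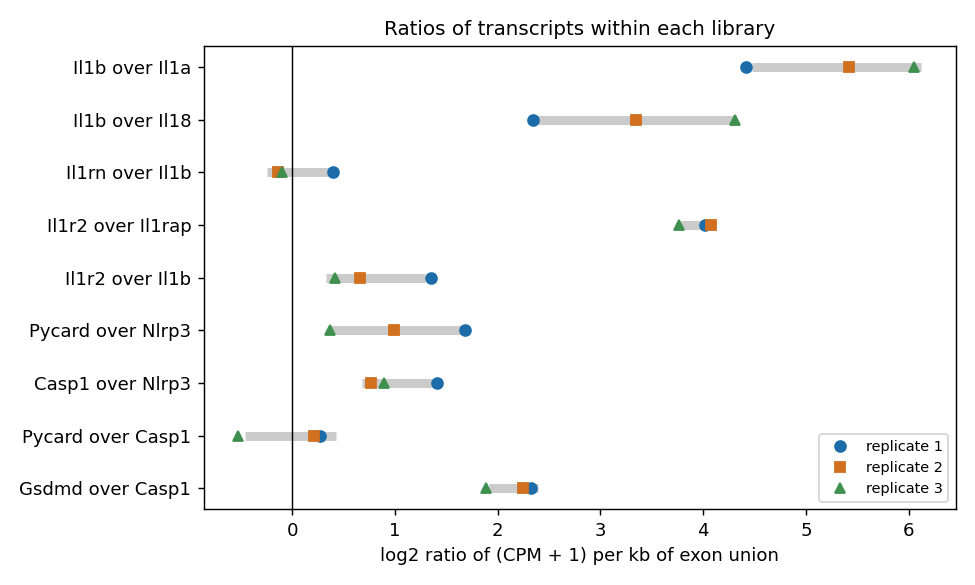
Log2 ratios of 2 transcripts within each library, with 1 CPM added to both and divided by exon length. Points are libraries and grey bars are the mean ± SD over 3 libraries. Il1b over Il1a and Il1r2 over Il1rap lie farthest from 0, and Il1rn over Il1b and Pycard over Casp1 straddle it.

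Of 71 other genes of the pathway, 59 were listed and 58 tested, of which 43 were above 10 CPM and 11 below, beside the 58.8% and 28.3% of all tested genes. Their median level was 41.4 CPM. Among inflammasome sensors 6 of 13 tested were above and 5 below, with a median of 8.10 CPM over the 14 listed. Per kb of exon 3 sensors were above that level and 8 below, beside 2894 (26.0%) above and 6975 below of all tested genes. Nlrx1, a mitochondrial member of the family, was at 120.1 ± 9.36 CPM. Naip2, the receptor of a bacterial secretion rod protein, was at 92.8 ± 9.65 CPM, Nlrp12, a regulatory NLR of myeloid cells, at 66.9 ± 22.6 and Nod1, a peptidoglycan sensor, at 61.7 ± 4.29 (SD, n = 3). Naip2 is one of several near-identical paralogs among which the counting may have split reads. Nlrp1b was at 0, 0.548 and 0 CPM in replicates 1, 2 and 3, and Nlrc5, a regulator of class I genes, was below at 2.92 ± 1.35 CPM. Nlrp10 was listed at 0 in every library and was not tested.

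All 5 listed executors of pyroptosis and related cell death were above 10 CPM, beside 58.8% of all tested genes. Per kb of exon 2 were above that level and 1 below, beside 2894 (26.0%) above and 6975 below of all tested genes. In that measure Gsdme was at 9.52 ± 1.75 and Casp4 at 7.12 ± 1.72 CPM per kb (SD, n = 3). Gsdme, another gasdermin, was at 121 ± 22.3 CPM. Ninj1, which ruptures the membrane after pore formation, was at 52.9 ± 13.4 CPM, Casp8 at 35.9 ± 3.98 and Casp4, the caspase of the pathway triggered by cytosolic lipopolysaccharide, at 26.4 ± 6.36 (SD, n = 3). Ninj1 had 62.1, 58.9 and 37.5 CPM in replicates 1, 2 and 3, lowest in replicate 3 as Pycard was.

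Of 15 inflammasome regulators 10 were above 10 CPM and 4 below (66.7% and 26.7%, beside 58.8% and 28.3% of all tested genes). Per kb of exon 5 were above and 8 below, beside 2894 (26.0%) above and 6975 below of all tested genes. Serpinb1a, an inhibitor of neutrophil serine proteases that also restrains inflammatory caspases, was at 829 ± 29.8 CPM. Hsp90ab1, a chaperone that keeps NLR proteins ready, was at 537 ± 55.6, Pstpip1, a partner of pyrin, at 357 ± 22.7, and Txnip, a thioredoxin-binding protein linked to NLRP3, at 348 ± 10.5 (SD, n = 3). P2rx7, the ATP-gated channel that triggers NLRP3 in macrophages, was below at 0, 0.672 and 0.878 CPM in replicates 1, 2 and 3. Irgb10, listed as Gm12250, which GENCODE M21 annotates as a processed pseudogene, was below at 0.783 ± 0.515 CPM.

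All 18 genes of signalling from the IL-1 receptor were above 10 CPM, beside 58.8% of all tested genes, with a median of 56.9 CPM. Against 10 CPM per kb of exon 8 of them were above and 7 below, beside 2894 (26.0%) above and 6975 below of all tested genes. Nfkbia, the inhibitor of NF-kB that NF-kB itself induces, was at 160 ± 25.2 CPM, and the subunit genes Nfkb1 at 150 ± 35.3 and Rela at 135 ± 24.4. Myd88, the adaptor of IL-1 and Toll-like receptors, was at 135 ± 20.4 CPM (SD, n = 3).

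**Figure D5:**
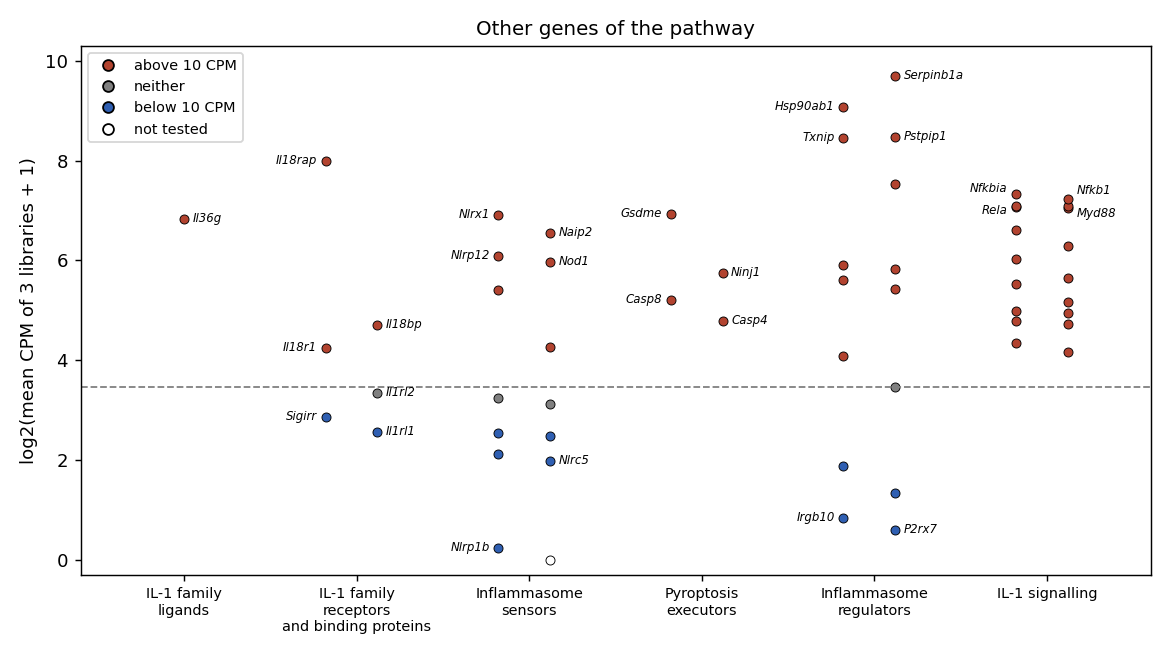
Mean level over the 3 libraries, log2(CPM + 1), of 58 of the 59 other listed genes of the pathway by role, coloured by their limma call against 10 CPM (dashed line). All signalling genes and the executors shown lie above the line, and sensors, regulators and receptors lie on both sides.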

How the data were processed

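The 3 libraries of 1 sorted population were made from messenger RNA. The authors deposited CPM for each gene. Per the submitters' processing notes, FastQC, STAR, featureCounts and edgeR were used with the builds mm10 and GRCh38. Versions, annotation, strand setting and gene filter are not given in the sources used here. The repeated entries of a gene (44, identical values) were kept once. All values (100%) were whole multiples of 1 read within 0.01 reads, so reads were recovered. Genes with at least 10 reads in all (11123) were fitted with limma 3.58.1 in R 4.3.3 on log2(CPM + 1) against 10 CPM, two-sided, with trended variance and Benjamini-Hochberg adjustment, and a gene was called where the adjusted p was under 0.05. The log2(CPM + 1) scale understates differences of low genes. edgeR 4.0.16 and DESeq2 1.42.0 on recovered reads were alternatives, edgeR calling 6660 genes above and 2787 below where limma called 6539 and 3153. The fits were also run on simulated reads with less spread between libraries than these had. That run therefore does not show how the tests behave at the spread of these libraries. Ratios used exon-union lengths of GENCODE M21 (GRCm38, the assembly of mm10), which 99.9% of genes had. Intervals are exact Poisson ones and cover counting error only. All 10 members were named, and of each other list up to 4 highest genes above and 2 lowest below 10 CPM, or the whole list where 6 or fewer were listed. One executor gene is not reported here. The members and lists were chosen with earlier results of these data known. Older symbols (Il36g as Il1f9, Irgb10 as Gm12250) were matched through RefSeq synonyms.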

Additional observations from a re-analysis of the deposited data

How the results depend on the processing

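The 8 members above 10 CPM remained 8 in number under every scaling, tool, pseudocount, filter and left-out library tried, and numbered 6 at 20 CPM and per kb of exon. The 2 below numbered 1 in edgeR, 4 per kb, and 1 to 2 when 1 library was left out. Per kb, the other pathway genes had 20 above and 28 below, and all genes had 2894 above and 6975 below. At 5 CPM, 6 pathway genes and 1870 of all genes were below. Among the genes named, the log2 level against 10 CPM turned negative per kb for Il1rap (-1.49), Nlrp3 (-0.56), Il18r1 (-1.24), Il18bp (-0.26), Nlrp12 (-0.20), Casp4 (-0.46) and Gsdme (-0.079), by division by their exon lengths. At 20 CPM it turned for Casp1 (-0.040) and Il18r1 (-0.17), and at 5 CPM for Sigirr (0.22), by the level itself. The ratio of Casp1 to Nlrp3 turned to -0.41 without length. That of Pycard to Casp1 (-0.01) turned to 0.026 with a pseudocount of 0.1, 1.33 without length and 2.39 per kb of coding sequence, a length added after seeing the data, and ran from -0.15 to 0.24 with a library left out. That of Il1rn to Il1b (0.06) ran from -0.12 to 0.15. The other 6 ratios kept their direction under each alternative. No paired analysis was possible because there is 1 group. Replicate 1 had too few reads to place genes near or under 0.583 CPM.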

Other observations

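Genes of neutrophil serine proteases, which are known to cut IL-1 family precursors outside inflammasomes, were above Casp1 per kb of exon, Elane at 1722 ± 277 CPM per kb, Prtn3 at 520 ± 87.7 and Ctsg at 170 ± 47.9, against 13.1 ± 1.88 for Casp1 (SD, n = 3). In CPM, Elane, the elastase gene, had 2008, 1558 and 1516 CPM in replicates 1, 2 and 3. Prtn3, the proteinase 3 gene, had 1077, 805 and 823 CPM, and Ctsg, the cathepsin G gene, had 232, 145 and 148 CPM. All 3 were highest in replicate 1, where Il1b was lowest. They were taken after their values were seen, and their relation to the cytokine genes was not tested.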
